A study of Mus musculus with 18 samples.

Results

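Among the 11 pancreas libraries, 2 held almost no counts on genes of odorant and pheromone receptors, and these 2 libraries were described here against the other 9. A library was placed by the share of its total counts on symbols of the odorant receptors (Olfr) and vomeronasal receptors (Vmn1r and Vmn2r), with the limit at 0.1%. The 2 receptor-poor libraries were HET 11, from a female, and HET 16, from a male. The 9 receptor-rich libraries were WT 11, WT 12, WT 16, HET 9, HET 10, HET 15, HOM 10, HOM 19 and HOM 21, of which WT 16 and HET 9 were from females and the rest from males. The series of 18 libraries also holds 7 livers, 2 of them WT and 5 HET, whose sex the labels do not give.

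The mice were wild type (WT), heterozygous (HET, OTUB2 +/-) or homozygous (HOM) for a knock-out of Otub2, a deubiquitinating enzyme that removes ubiquitin from other proteins. They were kept under ordinary housing, killed by cervical dislocation and given no further treatment in the labels, which do not state age, strain, the design of the knock-out allele or whether it acts in all cells. Total RNA of whole tissue was extracted with TRI reagent and sequenced with a bulk form of MARS-seq, which counts tags near the 3′ ends of polyadenylated RNA. Pancreas was sampled in 3 WT, 5 HET and 3 HOM libraries. The labels do not say that each library came from a separate animal, so any p-value below measures the spread between these libraries, which may be technical in part.

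Odorant and vomeronasal receptors are large families of genes that are normally read in sensory neurons of the nose. Pancreatic acinar cells, by contrast, devote most of their messenger RNA to a handful of digestive enzymes, and the mucosa of the stomach devotes much of its own to pepsinogens, trefoil peptides and gastrokines. A library made from abundant spliced messenger RNA is therefore led by few genes, while counts that spread over predicted genes, pseudogenes and receptor genes give a flat profile.

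The receptor share was 0.0147% in HET 11 (95% Wilson interval 0.0128 to 0.0169%) and 0.0252% in HET 16 (0.0217 to 0.0293%). In the receptor-rich libraries it was 0.695% in WT 11, 0.353% in WT 12, 0.599% in WT 16, 0.422% in HET 9, 0.233% in HET 10, 0.520% in HET 15, 0.438% in HOM 10, 0.616% in HOM 19 and 0.555% in HOM 21. HET 16 was the library just under the limit and HET 10 (0.202 to 0.269%) the library just over it. These shares chose the libraries and are given without a test, and the intervals cover counting error only.

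The share and the number of receptor counts ordered the libraries differently. HET 11 held 195 receptor counts on 29 genes and HET 16 held 169 on 27 genes. The receptor-rich libraries held between 182, in HET 10, and 1130, in WT 16. The total counts were 1326541 in HET 11 and 670588 in HET 16, against 49502 (HET 9) to 205103 (HOM 10) in the other 9, with a median of 81200. The receptor-poor libraries thus carried about as many receptor counts as HET 9 (209) and HET 10, in totals several times larger.

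**Figure D1:**
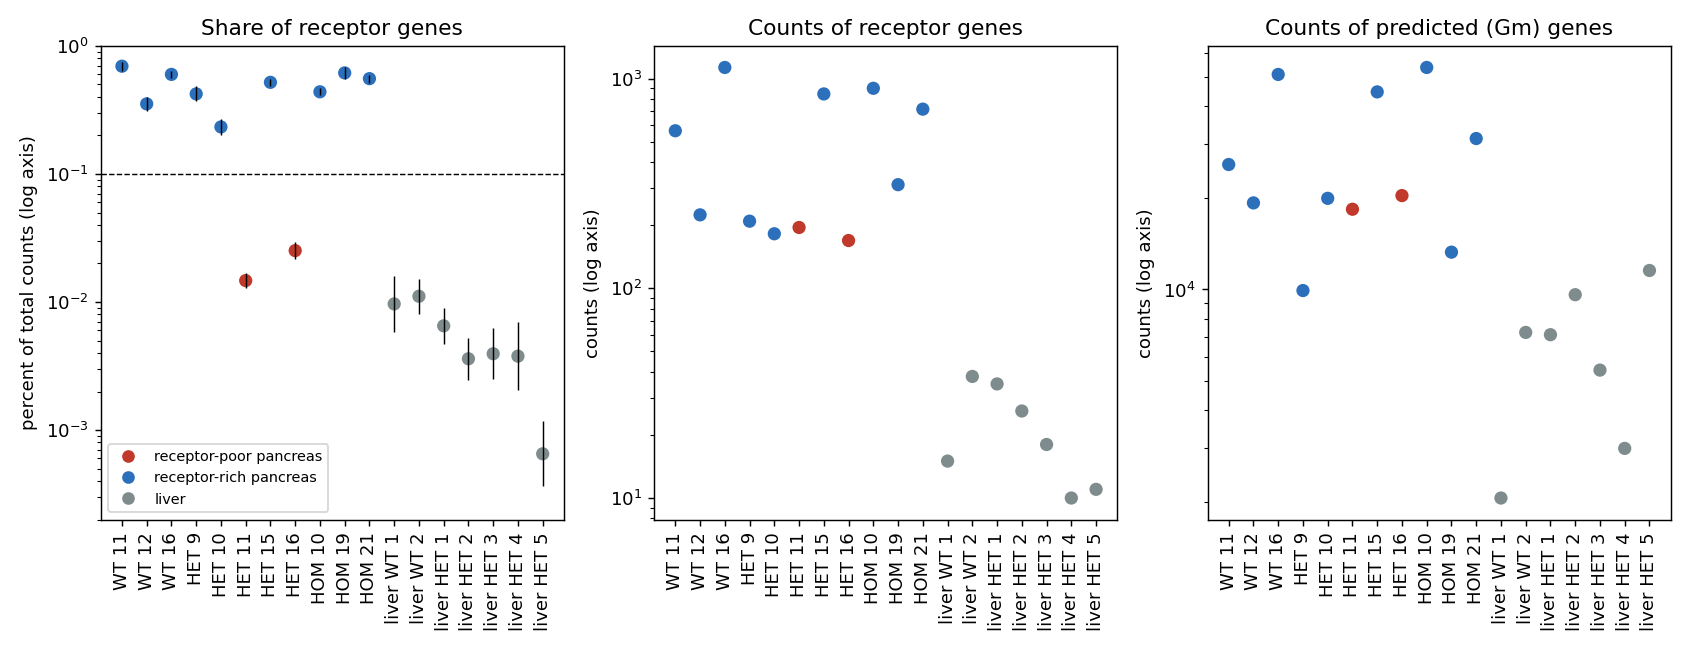
The panels plot, for each of the 11 pancreas and 7 liver libraries, the share of receptor genes in total counts (percent, log axis, bars are 95% Wilson intervals, dashed line at 0.1%), the receptor counts and the counts of predicted genes (both on log axes). HET 11 and HET 16 lie under the line in the first panel, while their counts of 195 and 169 lie beside the lowest receptor-rich libraries in the second.

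Counts on predicted genes, those with only a Gm number, split the libraries in the same way, but did not order the 9 receptor-rich libraries alike. They made up 1.38% of counts in HET 11 and 3.04% in HET 16, against 20.04% (HET 9) to 31.7% (WT 11) in the receptor-rich libraries. As numbers they were 18358 in HET 11 and 20356 in HET 16, inside the receptor-rich range of 9918 to 53713. For every 1000 predicted-gene counts there were 10.6 receptor counts in HET 11 and 8.30 in HET 16, while the receptor-rich libraries held between 9.13 (HET 10) and 23.5 (HOM 19). HET 16 was below all 9 in this ratio and HET 11 was not. The 7 livers carried 0.685 to 2.11% predicted-gene counts and 0.000652 to 0.0111% receptor counts, below both kinds of pancreas library in receptor share.

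By annotation, 95.05% of the HET 11 counts and 91.7% of the HET 16 counts lay on protein-coding genes, close to the 93.4 to 97.6% of the livers, and between 60.1% (HET 9) and 69.0% (HOM 19) in the receptor-rich libraries. Single-exon genes held 1.69% of counts in the first and 3.27% in the second of these, whereas they held 14.2 to 20.04% in the receptor-rich libraries. Pseudogenes took 0.408% and 1.05%, and 9.21 to 13.5% in the other 9. The receptor-rich libraries did not overlap with the receptor-poor pair in any of these shares. The share of mitochondrial DNA transcripts, 0.0777% and 0.0995%, lay within the receptor-rich range of 0.0614 to 0.640%.

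The leading 10 genes held 45.5% of counts in HET 11 and 35.1% in HET 16. In the receptor-rich libraries they held 2.44% (HOM 10) to 22.0% (HET 9), and in the livers 18.1 to 23.7%. HET 9 was the highest of the receptor-rich libraries because 14.9% of its counts fell on CT010467.1, a gene annotated as ribosomal RNA, which also held 2.25% in HET 11 and 3.57% in HET 16. After each library was thinned to 49502 counts, 550 genes in HET 11 and 647 in HET 16 had at least 10 counts, against 1178 (HET 9) to 1666 (HOM 21) in the receptor-rich libraries. Counts also sat in shorter genes. The median count fell in a gene with a genomic span of 6352 bases in HET 11 and 7641 bases in HET 16, against 8180 bases in HET 9 and a median of 17776 bases over the 9. The livers, at 7860 to 9962 bases, lay just above the receptor-poor pair.

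**Figure D2:**
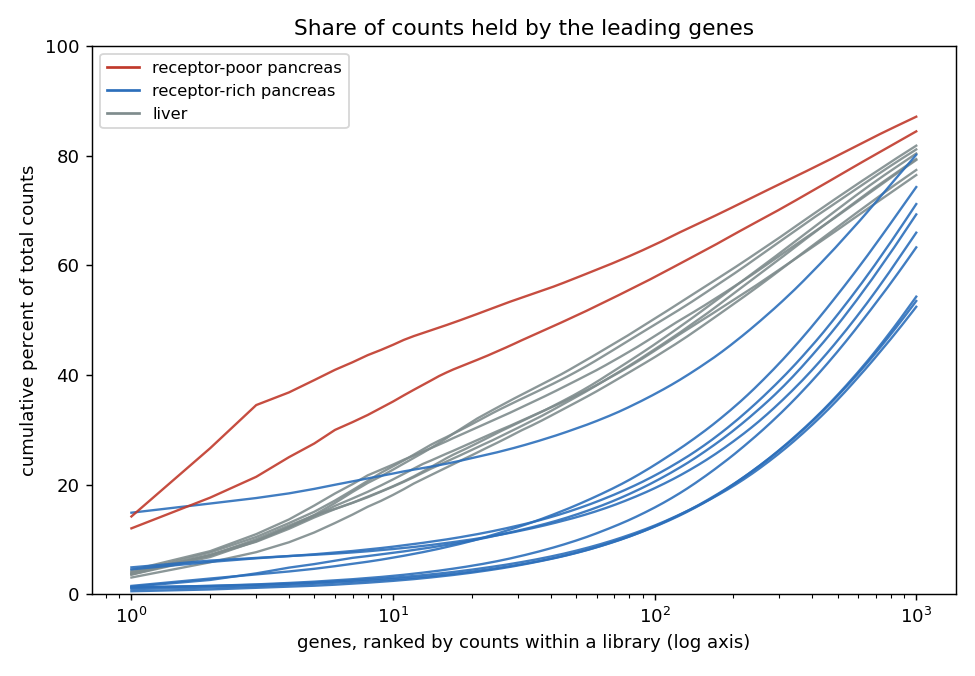
The lines give the cumulative percent of total counts (vertical axis) held by the genes of each library ranked by counts (horizontal, log axis). HET 11 and HET 16 run above every other library once the leading 10 genes are included (45.5% and 35.1%), most receptor-rich lines lie lowest, and HET 9 is the receptor-rich line that starts at 14.9%.

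Across genes, the pair resembled each other more than either resembled the rest. The rank correlation of their counts, over genes outside the receptor families with a mean of at least 10 CPM (a gene's counts scaled to a library total of 1000000), was 0.707. It was -0.02 to 0.30 between a receptor-poor and a receptor-rich library, and 0.20 to 0.51 between receptor-rich libraries. These are correlations across genes, which are not independent replicates, and they share the depth of the libraries.

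Genes were then compared by CPM with a floor-limited fold, which is the lowest receptor-poor value over the highest receptor-rich value, or the reverse, with any library under 3 counts set at 3 counts. A fold over 1 means that the libraries do not overlap, and a gene was called separated at 4-fold with at least 3 counts in every library of the higher side. Of 20274 genes with a count, 164 (0.809%) were separated upward and 104 (0.513%) downward in HET 11 and HET 16, and 697 (3.44%) and 252 (1.24%) did not overlap. The rule chose the libraries on the same counts, so these numbers describe the libraries and were not tested. The 164 genes held 41.6% of the HET 11 counts, 42.7% of the HET 16 counts and 0.0646 to 3.78% of those of a receptor-rich library. All 162 of them that could be matched to the annotation were protein coding, with a median span of 7855 bases, and 1 had a single exon. Of the 103 matched genes separated downward, 65.0% were protein coding and 24.3% had a single exon, near the 65.0% and 21.9% of all genes with a count. The median span of the protein-coding ones was 23844 bases, beside 23452.5 bases over all.

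Genes of the gastric mucosa carried the largest share of any list in both receptor-poor libraries. The 33 genes of the list, of which 4 (Gast, Lipf, Aqp4 and Cckbr) had no count in any pancreas library, held 25.1% of counts in HET 11 (25.0 to 25.2%) and 21.9% in HET 16 (21.8 to 22.0%). The receptor-rich libraries formed an uneven row, with 3.02% in HET 9, 1.82% in HOM 19, 0.770% in HOM 21, 0.587% in HOM 10 and 0.222% in HET 10. WT 11, WT 12, WT 16 and HET 15 held between 0.00553% and 0.0318%. Of the 33 genes, 13 did not overlap upward (3.44% of all genes), 4 of them separated (0.809% of all genes): Pgc, Ghrl, Tff1 and Psca. None of the 33 had at least 3 counts in all 9 receptor-rich libraries, so none could be called lower.

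Pgc, the precursor of the stomach protease gastricsin (chromosome 17, 47726842 to 47734482, plus strand, mm10), stood at 124513 CPM in HET 11 and 120199 CPM in HET 16. It was at 10019.8 CPM in HET 9, 6099 in HOM 19, 2843 in HOM 21, 1862 in HOM 10 and 1549 in HET 10, at 24.6, 31.5 and 90.2 CPM in WT 11, WT 12 and WT 16, and without a count in HET 15. The receptor-poor libraries lay close to each other and 12.0-fold above HET 9, the highest of the rest (19.7-fold with HET 9 left out).

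Tff1, a trefoil peptide that stomach surface cells secrete with mucus (chromosome 17, 31161395 to 31165277, minus strand), was at 78669 CPM in HET 11 and 56014 CPM in HET 16. The receptor-rich values were 8485 CPM in HET 9, 6474 in HOM 19, 1965 in HOM 21, 1877 in HOM 10, 243 in HET 10 and 18.4 in HET 15, with no count in the 3 WT libraries. The gap to HET 9 was 6.60-fold.

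Psca, a cell-surface protein of the stomach lining (chromosome 15), reached 18724 CPM in HET 11 and 24996 CPM in HET 16, and 3959 CPM in HET 9, its highest receptor-rich library. The fold was 4.73, and 15.8 without HET 9. Ghrl, the hormone ghrelin, was at 1992 and 722 CPM, against 98.7 CPM at most (HOM 19), a 7.31-fold gap (20.2-fold without HET 16). Gkn1, gastrokine 1 of the surface mucus cells, was at 12963 and 11348 CPM, against 6121 CPM in HET 9, and so did not overlap but lay only 1.85-fold apart. Atp4a and Atp4b, the subunits of the acid pump of parietal cells, did not overlap either, at 3.02-fold and 2.50-fold.

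None of the ratios below, of a gastric gene to Pgc within a library, set the pair apart from all receptor-rich libraries. For Gkn1 and Tff1 the pair lay above HET 10 and below HET 9 and the HOM libraries. For every 100 Pgc counts, HET 11 held 10.4 counts of Gkn1 and HET 16 held 9.44, whereas HET 9 held 61.1, HOM 10 62.6, HOM 19 42.7, HOM 21 49.5 and HET 10 2.48. Tff1 per 100 Pgc counts was 63.2 and 46.6 in the pair and 84.7, 101, 106 and 69.1 in HET 9, HOM 10, HOM 19 and HOM 21. HET 10, with 121 Pgc counts, was lowest at 15.7. Psca per 100 Pgc counts, at 15.0 and 20.8, lay inside the receptor-rich range of 9.92 to 39.5, and so did Atp4a, at 3.70 and 1.88 against 0 to 12.3. WT 11, WT 12, WT 16 and HET 15 had under 100 Pgc counts and gave no ratio.

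The sequence before the start of 3 of these genes is shown for readers who follow what their promoters hold, from RefSeq's annotation of GRCm38.p6. Each is the 250 bases before the start, 5′ to 3′ on the gene's strand: Pgc at chr17:47726592-47726841 (plus), Gkn1 at chr6:87350916-87351165 (minus) and Pla2g1b, the pancreatic phospholipase described next, at chr5:115465892-115466141 (plus). Capitals mark the letters TATAAA, which sit near the start of many genes. They also mark AGATAA, the core bound by zinc-finger factors of gut and blood. The third string searched was CAGCTG, the box of helix-loop-helix factors such as those of acinar cells. All were searched on both strands, and no window shown held more than 1 match.
Pgc: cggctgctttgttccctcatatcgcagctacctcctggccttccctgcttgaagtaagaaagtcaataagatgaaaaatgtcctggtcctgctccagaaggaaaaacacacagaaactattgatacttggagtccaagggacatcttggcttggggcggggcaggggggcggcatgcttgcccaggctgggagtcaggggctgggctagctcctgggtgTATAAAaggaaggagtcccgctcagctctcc
Gkn1: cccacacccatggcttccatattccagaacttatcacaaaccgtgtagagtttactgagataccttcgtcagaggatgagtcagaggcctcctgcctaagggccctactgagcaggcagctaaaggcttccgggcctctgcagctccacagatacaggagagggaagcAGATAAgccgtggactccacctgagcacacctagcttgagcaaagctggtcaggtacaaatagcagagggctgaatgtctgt
Pla2g1b: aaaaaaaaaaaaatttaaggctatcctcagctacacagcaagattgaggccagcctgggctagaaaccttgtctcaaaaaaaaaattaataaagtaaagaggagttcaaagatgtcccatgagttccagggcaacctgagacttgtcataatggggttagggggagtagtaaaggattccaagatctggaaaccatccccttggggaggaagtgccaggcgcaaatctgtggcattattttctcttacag

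The Pgc window held TATAAA starting 31 bases before the gene start, the Gkn1 window held AGATAA starting 82 bases before it, and the Pla2g1b window held none of the 3. Among the 27025 genes with a RefSeq window of this length, 14.3% held TATAAA, 11.4% AGATAA and 14.7% CAGCTG in at least 1 window. Of the 164 genes separated upward, 140 had a window, and 9 of those held TATAAA, 10 AGATAA and 20 CAGCTG. A match is a string of letters and not a shown binding site.

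Of the acinar list, which holds 39 genes for pancreatic enzymes and acinar factors, 25 had no count in any of the 11 libraries. Among these were Cel, Ctrb1, Ctrc, Cela2a, Cela3b, Prss1, Prss2, all 6 Amy2 genes, Gp2, Reg1, Ptf1a and Rbpjl, most of the genes by which acinar tissue is usually recognised. Cpa1 and Cpb1 had counts in HET 15 alone (3 counts of Cpa1) and WT 11 alone (5 counts of Cpb1). Few of the defining markers of the labelled tissue were thus counted in either kind of library. The counting tool and its treatment of multi-mapped reads are not given, so these zeros do not show that acinar transcripts were absent.

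The acinar share was nonetheless 16.5% in HET 11 and 6.31% in HET 16, nearly all of it from Clps and Pla2g1b. The receptor-rich libraries held 1.60% (HOM 19), 1.58% (HET 9) and less, down to 0.0159% in WT 16. Of the 14 genes of the list with a count, 2, Clps and Pla2g1b, did not overlap upward, beside 3.44% of all genes with a count. None was separated. Without Clps the share was 2.32% in HET 11 and 2.50% in HET 16.

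Clps, the colipase that anchors pancreatic lipase to fat droplets (chromosome 17, 28558149 to 28560766, minus strand), was the leading gene of HET 11 at 141867 CPM and stood at 38016 CPM in HET 16. The receptor-rich libraries held 10442 CPM in HOM 19, 8202 in HET 9, 2989 in HOM 10, 2423 in HOM 21 and 666 in HET 10, and 12.3, 15.8, 5.31 and 12.3 CPM in WT 11, WT 12, WT 16 and HET 15, which had 1 or 2 counts each. The receptor-poor libraries differed more from each other in Clps than in Pgc, and HET 16 lay 3.64-fold above HOM 19. Without HET 16 the gap was 13.6-fold, past the limit of separation.

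Pla2g1b, the secreted pancreatic phospholipase A2, was at 23038 CPM in HET 11 and 24763 CPM in HET 16, 3.06-fold above the 7535 CPM of HET 9. Its ratio to Clps was 16.2 counts per 100 in HET 11 and 65.1 in HET 16, and 91.9 in HET 9, 36.4 in HOM 10, 50.5 in HOM 19 and 55.8 in HOM 21. Pnliprp1, a lipase-related protein, was at 82.2 and 19.4 CPM in the pair and 998 CPM in WT 11. In HET 10 all 57 acinar counts fell on Clps (52) and Pla2g1b (5). Pnliprp1 thus had no count there, and the libraries overlapped without a common direction. Sycn, a zymogen-granule protein, had 135 counts in HET 16 and 8 in HET 11, and none in the receptor-rich libraries.

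Markers of other cells of the organ took smaller shares. Of 25 islet genes, Chga, a granule protein of endocrine cells, did not overlap upward, with 140 and 121 CPM and no count in any receptor-rich library. Pax6, an islet transcription factor, did not overlap downward, at 6.78 and 70.1 CPM against 256.1 CPM or more. Of the 15 islet genes with a count this is a single gene in each direction, beside 3.44% upward and 1.24% downward of all genes with a count. It is no result about islet genes. Ins1 was at 0 in HET 11 and 44.7 CPM in HET 16 and ranged from 0 in 5 receptor-rich libraries to 756 CPM in HET 10. Gcg had no count in any library. The islet share was 0.0162% and 0.0236%, against 0.0378 to 0.182%. Per 1000 predicted-gene counts the order was reversed. There were 11.7 islet counts in HET 11 and 7.76 in HET 16, against 1.25 to 6.57 in the receptor-rich libraries. That scaling raises every gene of the pair by construction, so the lower share is relative to the library total. In such bulk libraries, fewer cells of a type and less RNA per cell cannot be told apart.

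Duct markers held 0.670% and 0.579% of counts, and HET 9 (0.642%) lay between these values. Of the 15 duct markers, 12 had a count. Krt19 (5098 and 4348 CPM, 1.52-fold) and Muc1 were higher without overlap, beside 3.44% of all genes. Bicc1, an RNA-binding protein, was lower without overlap at 25.6 and 83.5 CPM against 217 CPM or more, beside 1.24% of all genes. Only Bicc1 had at least 3 counts in all 9 receptor-rich libraries, so no other duct marker could be called lower.

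Epithelial genes separated the libraries in both of their classes. The simple-epithelium list of 25 genes held 1.19% and 1.09% of counts, against 0.0419 to 0.481%, and 6 genes did not overlap upward (3.44% of all genes), of which Elf3, Krt8 and Krt18 were separated (0.809%). Elf3, a transcription factor of epithelial cells, was at 931 and 1171 CPM, at 80.8, 79.0 and 38.8 CPM in HET 9, HOM 19 and HOM 21, and without a count in the remaining 6, an 11.5-fold gap. Krt18, a keratin of single-layered epithelia, was at 3134 and 2932 CPM against 626 CPM at most (HET 9), 4.68-fold apart (12.4-fold without HET 9), and its partner Krt8 was 4.80-fold apart (9.82-fold without HET 9). Epcam, a standard epithelial marker, was at only 36.2 and 25.4 CPM, and without a count in the other 9.

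The stratified-epithelium list of 26 genes, which are not expected in pancreatic tissue, held 0.416% and 0.674%, against 0.00123 to 0.162%. Of these, 8 did not overlap upward, beside 3.44% of all genes, and Sfn, Krt13 and Krt4 were separated. Sfn, a 14-3-3 protein of keratinocytes, was at 1076 and 841 CPM and at most 60.6 CPM elsewhere (13.9-fold). Krt13, a keratin of the lining of mouth, gullet and forestomach, was at 967 and 1347 CPM and at most 158 CPM elsewhere (6.13-fold). Krtdap, a further keratinocyte gene, overlapped, since HET 10 held 1357 CPM. Of 21 intestinal genes 2, Apoa1 and Apoa4, did not overlap upward, beside 3.44% of all genes. Apoa1, also a liver product, was 4.96-fold apart, and 45.2-fold without HET 9.

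**Figure D3:**
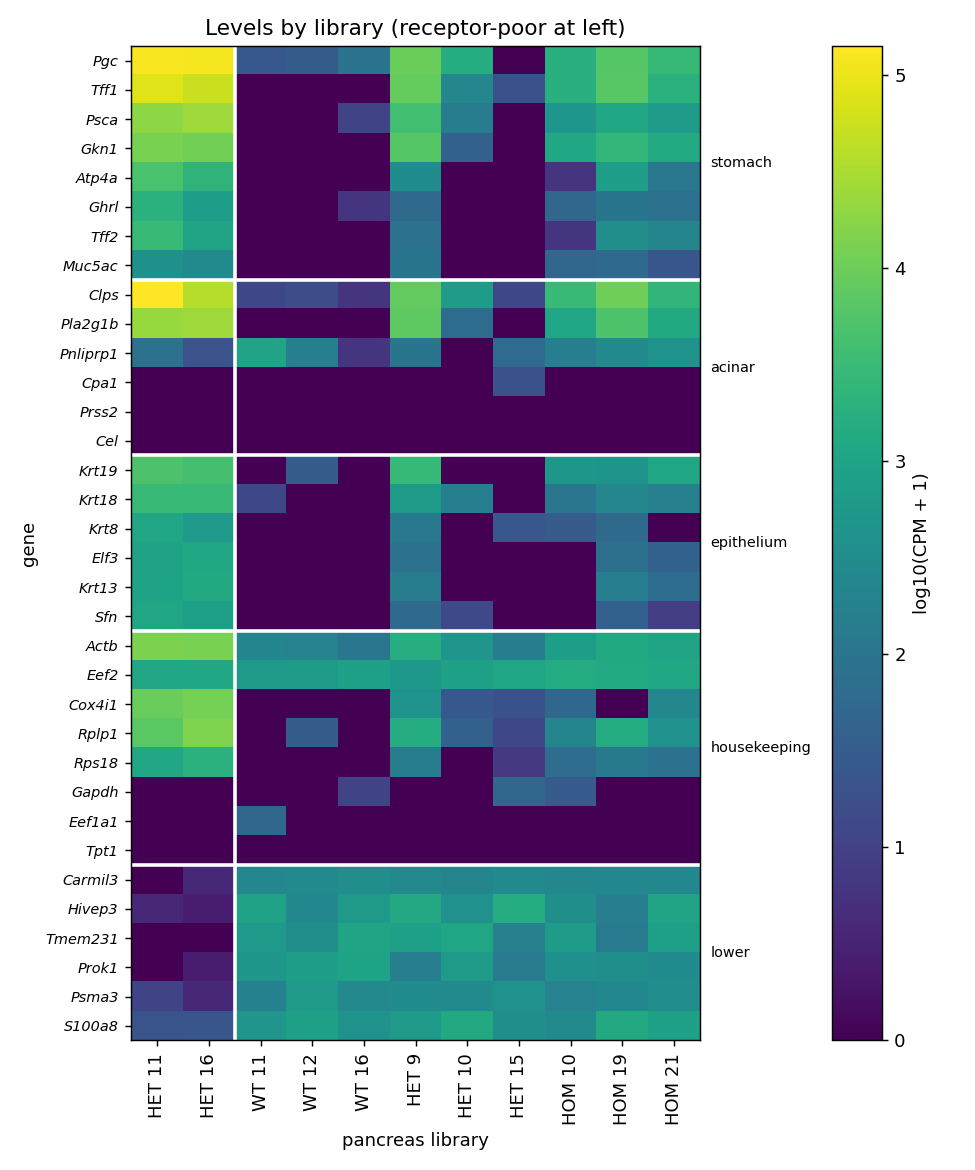
The heat map shows log10(CPM + 1) of 34 genes (rows, grouped by list) in the 11 pancreas libraries (columns, HET 11 and HET 16 at the left of the white line). Gastric, epithelial and several housekeeping rows are brightest in the left columns and next brightest in HET 9 and the HOM libraries, Eef2 is level across all, and the bottom rows are dark in the left columns.

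Housekeeping genes split among themselves. The list of 40 genes held 3.96% and 4.95% of counts, against 0.187% (WT 11) to 0.855% (HOM 19). Of the 40, 10 did not overlap upward (3.44% of all genes) and 6 of these were separated (0.809%), namely Cox4i1, Rps18, Actb, Rplp0, Ptma and Rplp1. Among the others, Fth1, the heavy chain of the iron store ferritin, did not overlap downward, and 4 (Tpt1, Hprt, Pgk1 and Tfrc) had no count in any of the 11 libraries.

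Actb, the cytoskeletal actin, was at 13792 CPM in HET 11 and 12878 CPM in HET 16. It was at 1616 CPM in HET 9, 1322 in HOM 19, 1010 in HOM 21, 756 in HOM 10, 487 in HET 10, 234 in WT 11, 189 in WT 12, 154 in HET 15 and 106 in WT 16. Actb was counted in every library and was 7.97-fold apart. Cox4i1, a subunit of respiratory complex IV, was at 9283 and 11635 CPM against 424 CPM at most (HET 9), 21.9-fold apart (38.6-fold without HET 9), and had no count in WT 11, WT 12, WT 16 and HOM 19. Rplp1, a stalk protein of the ribosome, was at 6873 and 14164 CPM against 1555 CPM at most.

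Eef2, the elongation factor that moves the ribosome along, did not separate: it was at 1151 and 1247 CPM, inside the receptor-rich range of 545 to 1468 CPM. Fth1 was at 134 and 34.3 CPM, below all 9 receptor-rich values of 185 to 1319 CPM. Gapdh and Eef1a1, among the most abundant transcripts of most tissues, had no count in HET 11 or HET 16. Gapdh had 2, 8 and 6 counts in WT 16, HET 15 and HOM 10, and Eef1a1 had 4 in WT 11. In the livers Gapdh had 3 to 74 counts and Eef1a1 13 to 83, so the low values were not limited to pancreas. A count at or near 0 for such genes says nothing of their expression here.

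Of the larger families that every cell uses, the ribosomal and respiratory ones held larger shares in the pair and had members higher without overlap. Lower calls were nearly impossible there: 1 ribosomal and 0 respiratory genes had at least 3 counts in all 9 receptor-rich libraries. Among 87 cytosolic ribosomal protein genes, 27 did not overlap upward and 14 were separated (3.44% and 0.809% of all genes), and the family's share was 5.29% and 5.79%, against 0.208 to 0.707%. Rpl14, Rps14, Rps26 and Rplp2 were 17.8-, 16.7-, 16.0- and 15.6-fold apart. Of 84 genes of the respiratory chain and ATP synthase, 28 did not overlap upward and 11 were separated, with shares of 3.79% and 3.87% against 0.0160 to 0.812%. Ndufs8, a subunit of complex I, was 25.1-fold apart, with 1523 and 1933 CPM against 60.6 CPM at most.

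Proteasome subunits did not follow in their share of counts, though some members were higher. Their share, 0.262% in HET 11 and 0.390% in HET 16, lay inside the receptor-rich range of 0.113 to 0.435%. Of 39 subunits 7 did not overlap upward and 3 of these were separated (3.44% and 0.809% of all genes), while Psma3, a subunit of the core ring, was separated downward, at 10.6 and 2.98 CPM against 185 CPM or more (17.5-fold, but overlapping per predicted-gene count). The secretory pathway list of 30 genes held 0.371% and 0.357% against 0.0394 to 0.151%, and of it Calr, a chaperone of the endoplasmic reticulum (8.74-fold), and Pdia2, a disulfide isomerase known from pancreas (7.97-fold), were separated, beside 0.809% of all genes.

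**Figure D4:**
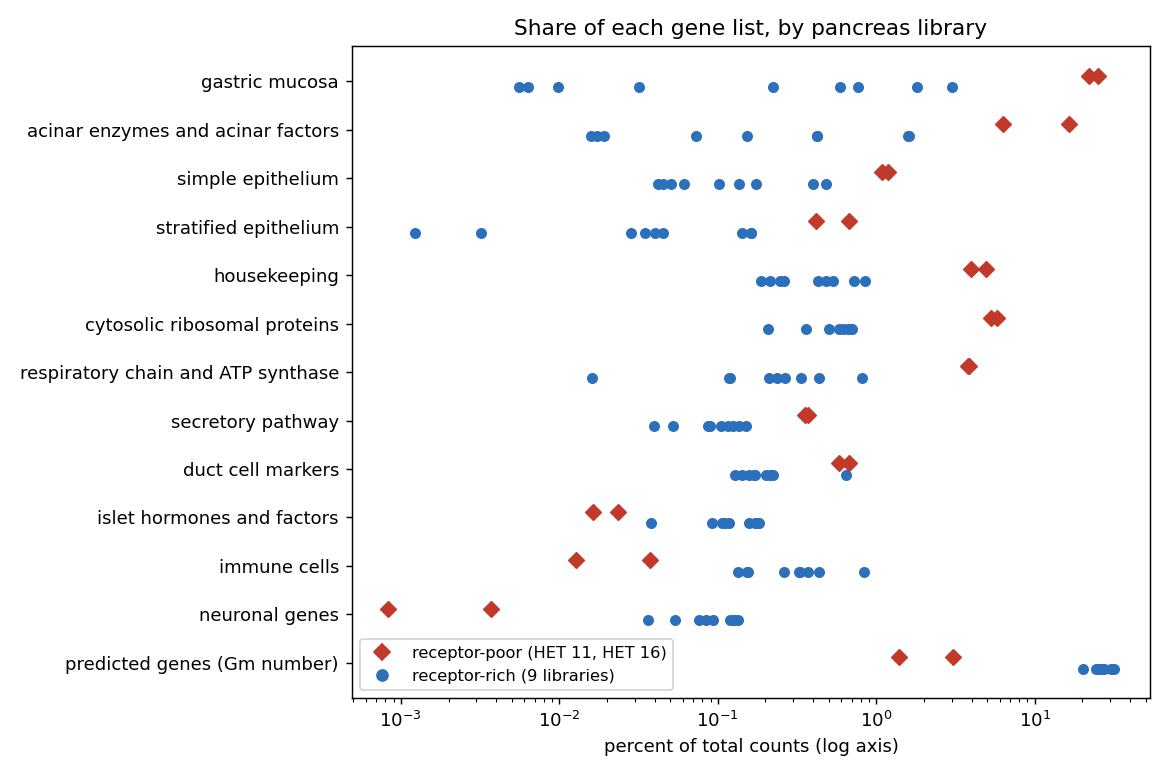
Each point is the percent of total counts (log axis) that a gene list held in a pancreas library, with HET 11 and HET 16 as diamonds and the 9 receptor-rich libraries as circles. The diamonds lie to the right of all circles for gastric, acinar, epithelial, housekeeping, ribosomal, respiratory and secretory genes, and to the left for islet, immune, neuronal and predicted genes. For duct markers HET 16 lies among the circles and HET 11 just to the right of them.

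Genes outside these lists were among those furthest apart. Upward, the largest gaps after Ndufs8 were those of Stard10, a lipid-transfer protein (25.0-fold, 9605 and 10009 CPM against 384 CPM at most, and 44.2-fold without HET 9), Scand1 (23.9-fold) and Pgls, an enzyme of the pentose phosphate pathway (23.8-fold). Plec, the cytoskeletal linker plectin, was 19.8-fold apart, and Aldh3a1, an aldehyde dehydrogenase of stomach and cornea, was 14.6-fold apart.

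Downward, Carmil3, an actin-capping regulator, was furthest apart. It was at 0 CPM in HET 11 and 2.98 CPM in HET 16, and between 218 CPM (HET 10) and 345 CPM (WT 16) in the receptor-rich libraries (floor-limited fold 48.7, and 96.3 without HET 16). The fold was 9.21 with TMM sizes and 4.75 per predicted-gene count, and after thinning to 49502 counts it was 2, too few counts for a call. Hivep3, a zinc-finger protein, was at 3.02 and 1.49 CPM against 158 to 1513 CPM. Tmem231, a protein of the ciliary transition zone, had no count in either and 138 to 1101 CPM in the other 9. Prok1, the secreted peptide prokineticin 1, was at 0 and 1.49 CPM against 129 to 976 CPM. These 3 also lost the call after thinning, where the floor is a larger part of each level. Unlike Carmil3 they lost it per predicted-gene count too, at 2.77-, 3.23- and 2.88-fold, but kept it with TMM sizes. Among the 9 receptor-rich libraries Carmil3 was more even than Pgc or Tff1. Its call needed at least 3 counts in each of the 9, a need that favours even genes.

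Of 26 immune genes 3 were lower without overlap and all 3 were separated (1.24% and 0.513% of all genes): S100a8, S100a9 and Lyz2, products of neutrophils and macrophages. Only these 3 had at least 3 counts in all 9 receptor-rich libraries, so no other immune gene could be called lower. S100a8 was at 20.4 and 22.4 CPM against 283 to 1322 CPM (12.6-fold, but 1.88-fold with TMM sizes and overlapping per predicted-gene count), and the list's share was 0.0127% and 0.0371% against 0.134 to 0.843%. Other defining immune markers were low in both kinds of library, with Igkc at 31.5 CPM and Cd74 at 115 CPM at most in the receptor-rich libraries. Neuronal genes with long introns held 0.000829% and 0.00373% against 0.0364 to 0.134%. Of 20 stromal and muscle genes 3 did not overlap upward, beside 3.44% of all genes, and Des, the desmin of muscle, was at 549 and 289 CPM and had no count in any receptor-rich library. The part of these other cells in the differences above was not tested.

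The scaling set how many genes counted as higher or lower. CPM divides by the library total, of which the gastric and acinar lists held 25.1% and 16.5% in HET 11 and 21.9% and 6.31% in HET 16. Dividing by the counts of predicted genes, or by effective library sizes from edgeR's TMM method (HET 11 had a factor of 0.175, HET 16 of 0.268, and the receptor-rich libraries of 1.29 to 1.61), raises every gene of the pair against the other 9 by construction. Genes higher by CPM therefore stay higher under both, which adds nothing to their calls, and genes lower by CPM can be lost. Separated genes numbered 1323 upward and 1 downward per predicted-gene count and 988 and 13 with TMM sizes, and 39 of the 252 genes that did not overlap downward by CPM still did so per predicted-gene count. With totals that leave out the 100 leading genes, 284 and 63 were separated. Upward genes made up 61.2% of separated genes by CPM, 98.7% by TMM sizes and 99.9% per predicted-gene count. A direction given above is thus relative to the library total.

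**Figure D5:**
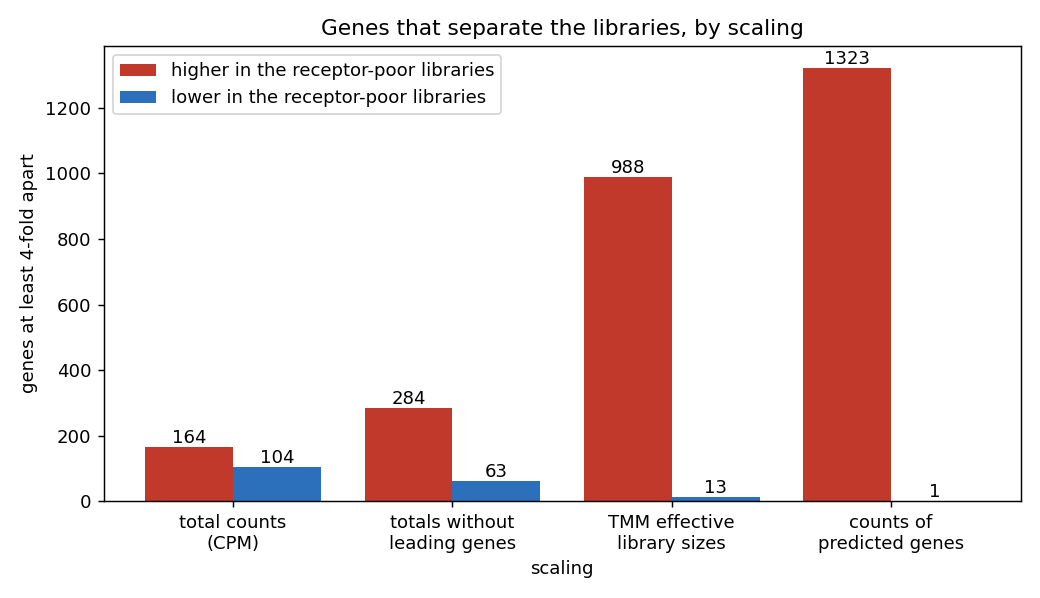
Bars count the genes at least 4-fold apart (vertical axis), higher or lower in HET 11 and HET 16, under 4 scalings (horizontal axis). The lower genes number 104 by CPM and 1 per predicted-gene count, while the higher ones number 164 and 1323.

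Both receptor-poor libraries are HET, so they enter every comparison with that genotype. Otub2 itself had 3 counts in WT 11, 4 in WT 12, 3 in WT 16, 1 in HET 16 and 1 in HOM 10, and none in the other 6 libraries. The WT libraries were highest, but counts of 1 to 4 do not allow a check of the label of any single library, and where the tags lie relative to the deleted part is not given in the sources used here.

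With all 11 libraries, edgeR's quasi-likelihood test with sex as a covariate called 0 of 3719 genes between HET and WT (0%) and 0 between HOM and HET (0%) at a Benjamini-Hochberg adjusted p of 0.05. At an unadjusted p under 0.05 there were 517 and 410 genes, and DESeq2 called 183 and 53. The common dispersion was 2.75. Pgc had a fitted log2 difference of 12.66 (SE 6.29, HET minus WT, edgeR adjusted p = 0.333), and Actb of 7.45 (SE 4.52, edgeR adjusted p = 0.524). Cox4i1, without a count in any WT library, had an edgeR adjusted p of 0.139, and no fold is given for it.

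Without HET 11 and HET 16, the same edgeR fit called 8 of 2598 genes (0.308%) higher and 1 (0.0385%) lower in HET than in WT, and the higher ones included the same stomach and pancreas genes. They were Tff1, Pla2g1b, Gkn1, Clps and Psca, with the RNA-processing gene Luc7l3 and the predicted genes Gm23935 and Gm6129, and Gm10800 was the lower one. Clps had 406, 52 and 2 counts in HET 9, HET 10 and HET 15 and 1 in each WT library, a fitted log2 difference of 6.47 (SE 1.10, edgeR adjusted p = 5.27e-05). Tff1, with 420, 19 and 3 counts against none, had an edgeR adjusted p of 9.14e-12, and Gkn1, with 303, 3 and 0 counts against none, of 4.75e-05. No fold is given for these 2, since all WT libraries are at 0. Pgc was not called (edgeR adjusted p = 0.0670), nor was Actb (0.995).

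In HOM against HET the same fit without the pair called 3 genes (0.115%) higher in HOM, Tff1, Gkn1 and Pla2g1b, and 4 (0.154%), Gm23935, Mir99ahg, Spop and Gm38197, lower. The 3 higher calls rest on the sex term. HET 9 is then the female library among the HET libraries and all HOM libraries are male, so that HOM is set mainly against HET 10 and HET 15. Tff1 stood at 8485, 243 and 18.4 CPM in HET 9, HET 10 and HET 15 and at 1877, 6474 and 1965 CPM in HOM 10, HOM 19 and HOM 21, and the groups overlapped. Its fitted log2 difference (HOM minus HET) was 4.62 with the sex term (SE 0.94, edgeR adjusted p = 0.000786) and 0.14 without it (SE 2.17, edgeR adjusted p = 0.999). For Gkn1 the values were 6.44 and -0.31, and for Pla2g1b 6.23 and -0.09, neither called by edgeR without the term. With all 11 libraries and the sex term the difference of Tff1 was -5.02 (SE 4.57, edgeR adjusted p = 0.968). Without the pair and without the sex term, edgeR called 7 genes between HET and WT, of which Psca was the only one of Pgc, Tff1, Clps, Psca, Gkn1 and Pla2g1b (edgeR adjusted p = 0.000211), and 4 between HOM and HET. This fit without the sex term was chosen after seeing the data.

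The calls made with the sex term also rested on single libraries. When HET 9 was also left out, none of Pgc, Tff1, Clps, Psca, Gkn1 and Pla2g1b was called in either comparison by edgeR, and 1 and 2 genes were called in all. When HET 15 was left out instead, all 6 were called between HET and WT and none between HOM and HET. The receptor-rich HET libraries thus differed among themselves, from 3.02% of counts on gastric genes in HET 9 to 0.222% in HET 10 and 0.00553% in HET 15. No batch, date or cage is given in the labels, so a technical batch could not be set against the split.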

How the data were processed

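Pancreas and liver RNA was measured by bulk MARS-seq. The values used are counts per gene symbol, whole numbers as deposited by the authors, in a table of 55291 symbols per tissue. The submitters' processing notes name STAR, cutadapt and the build mm10; tool versions, the counting tool and its treatment of multi-mapped reads are not given in the sources used here. Members and gene lists were chosen with earlier results of these data known. Receptor shares, list shares and CPM were computed from total counts (pancreas 49502 to 1326541 per library; 95% Wilson half-widths of a list share up to 0.0990 percentage points in the receptor-poor and 0.383 in the receptor-rich libraries). Gene classes and spans are from GENCODE M21 (53292 symbols matched). The split by receptor share was described without a test. Genotypes were compared with edgeR 4.0.16 (filterByExpr, TMM, robust quasi-likelihood, sex as covariate, 7 residual degrees of freedom, Benjamini-Hochberg), checked on simulated counts, with DESeq2 1.42.0 as an alternative. No pair of libraries held identical values. Replicate numbers shared by groups did not pair the libraries. A housekeeping gene is not reported here. Named genes were Pgc, Tff1, Clps and Otub2, up to 6 members of each list by mean CPM, any acinar or housekeeping gene, genes at 0 throughout, and the 15 furthest apart in each direction without predicted genes; other list members named for not overlapping, and genes named as called, were chosen after their values were seen. Alternatives were other scalings, tools, filters, folds and floors, and libraries left out.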

Additional observations from a re-analysis of the deposited data

Results flagged for a closer look

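In 54 groups of the 5 HET pancreas libraries, 7 values stood far from the other 4 by Dixon's criterion (0.710 for 5 samples), which chance alone meets in about 1 in 20 groups. Clps stood at 141867 CPM in HET 11, against 38016 CPM in the next library, HET 16. Genes of fat, blood and liver held 0.205% of counts in HET 16, against 0.0387% in HET 11. Prok1 stood at 627 CPM in HET 10, against 162 CPM in HET 9. Mitochondrial DNA transcripts held 0.2005% in HET 15, against 0.0995% in HET 16. The remaining flags are shares of families with almost no counts: taste receptors at 0.0121% in HET 9, keratin-associated proteins at 7.54e-05% in HET 11 and beta-defensins at 0.000615% in HET 15.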

How the results depend on the processing

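The same 2 libraries were under the limit with Olfr genes alone and with limits of 0.05% or 0.2%; with Vmn1r and Vmn2r genes alone 9 libraries were under 0.1%, and with taste-receptor, keratin-associated and beta-defensin genes all 11 were. Separated genes, 164 higher and 104 lower, numbered 988 and 13 with TMM sizes, 284 and 63 with totals without the 100 leading genes, 371 and 185 at 2-fold, 55 and 57 at 8-fold, 166 and 30 after thinning, 360 and 137 with a floor of 1 count, and, chosen after seeing the data, 1323 and 1 per predicted-gene count. Leaving out each library in turn gave 164 to 270 higher (270 without HET 11) and 108 to 215 lower, with 165 without WT 12 or HOM 19, 155 without WT 11 or HET 9 and 215 without HET 16. The upward share was 81.8% with totals without the leading genes and 84.7% after thinning. Without Pgc and Tff1 the gastric share was 4.79% in HET 11 and 4.32% in HET 16, and without Clps the acinar share was 2.32% and 2.50%. Of 28 genes described by fold none turned direction, but calls were lost. After thinning Carmil3, Tmem231 and Prok1 were at 2, Hivep3 at 2.67, Psma3 at 1.67 and Des, higher in the pair, at 3. Per predicted-gene count Hivep3 (2.77), Tmem231 (3.23) and Prok1 (2.88) fell under 4-fold, and Psma3 (0.764) and S100a8 (0.734) overlapped. The gene-level folds moved most without HET 9 (Psca 4.73 to 15.8, Apoa1 4.96 to 45.2, Calr 8.74 to 20.9) or HET 16 (Clps 3.64 to 13.6, Pdia2 7.97 to 15.3, Des 4.77 to 9.06, Tmem231 30.9 to 61.1, Prok1 28.9 to 57.1); Rps18, Rplp1 and Psma3 went to 13.8, 9.11 and 41.3 without HET 11, and Hivep3 to 56.3 without HOM 19.

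Of the genotype comparisons, HET against WT had 0 calls in edgeR, 183 in DESeq2, 146 without the sex covariate, 9 without the receptor-poor pair (7 if sex is also dropped), and 0 to 92 with each library left out (43 without HET 9, 92 without HET 15). HOM against HET had 0, 53 in DESeq2, 0 without the sex covariate and 7 without the pair (4 if sex is also dropped, chosen after seeing the data). With the pair and each further library left out, chosen after seeing the data, the counts were 1, 6, 8, 9, 10, 11 or 12 for HET against WT and 2, 3, 4, 5, 6, 8 or 11 for HOM against HET. With the replicate number as a replicate block in place of sex, edgeR called 149 genes between HET and WT and 0 between HOM and HET. The 3 same-numbered pairs had correlations of deviations of 0.02, -0.07 and 0.06, so the numbers were not taken as pairing. The cause of these differences was not tested. Totals of 49502 to 205103 counts limit what the receptor-rich libraries can show for genes under about 14.6 to 60.6 CPM, the level of 3 counts.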
